A study of Homo sapiens with 16 samples.

Results

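Chromatin accessibility was mapped by ATAC-seq, in which the Tn5 transposase cuts and tags open DNA, in LNCaP prostate cancer cells that carried an shRNA against HOXB13 and in LNCaP cells that carried the control shRNA vector pGIPZ. The members are all ATAC peaks of the pair of libraries: 29932 peaks in the HOXB13 shRNA library and 37073 in the control library, together 67005 of the 816313 peaks and regions in the 12 peak lists of the series. A peak was counted as shared when it overlapped a peak of the other library by 1 bp or more. LNCaP is an androgen-sensitive line from a lymph node metastasis. Both cultures were infected for 7 days, and 50000 cells entered each transposition, per the labels' protocols. No rescue construct was present in either ATAC-seq culture. The labels name 1 hairpin construct and 1 library per group, so differences are given without p-values. The intervals (95% CI: Wilson for a share, Newcombe for a difference of shares, exact for a ratio of tags) cover counting error only.

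HOXB13, a posterior homeobox transcription factor, stays expressed in the adult prostate, where it binds chromatin together with other lineage factors such as FOXA1. Open chromatin marks promoters and enhancers at which transcription factors have displaced nucleosomes, usually several factors at 1 site. HDAC3 and HDAC1 are histone deacetylases that work in corepressor complexes and are often found at active elements as well as repressed ones. The comparison asks how the set of accessible sites differed once HOXB13 was lowered, and whether sites that had carried HOXB13 or a deacetylase differed from the rest.

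The HOXB13 shRNA ATAC library held 25.5 M tags and the control library 36.1 M, of which 2.38% and 2.46% lay in peaks. The peaks were 111 bp wide in the HOXB13 shRNA library and 96 bp in the control, so that a flat signal would give a log2 ratio of 0.21 between them. The tag threshold in the file headers was 10 tags (3.92 normalized tags, per 10000000 in the library) for the HOXB13 shRNA library and 11 tags (3.04 normalized tags) for the control, so the shallower library had the higher floor. Each list also held some peaks below its threshold, down to 8 tags. In the separate HOXB13 ChIP-seq libraries, 22864 peaks were called after knockdown and 91430 in the control. The ATAC lists pair no peak with a gene, and no gene annotation of their build was used here, so the LNCaP label was not checked against prostate marker genes.

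About as many accessible sites of the control were met again after knockdown as were not. Of the 29932 peaks after knockdown, 11411 (38.1%, 95% CI 37.6 to 38.7) had no control peak, and of the 37073 control peaks, 18538 (50.0%, 95% CI 49.5 to 50.5) had no peak after knockdown. Peaks called in 1 library only were weak: their median was 5.10 normalized tags (13 tags) in the HOXB13 shRNA library and 4.43 (16 tags) in the control, against 6.67 (17 tags) and 6.37 (23 tags) at shared sites. Control peaks below the floor of the knockdown library were met at 25.02% (2159 of 8629), and those at or above it at 57.6% (16376 of 28444). With both lists held to that floor, 42.7% of knockdown peaks had no control peak and 55.8% of control peaks were met.

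The share met increased with strength in both directions. Split into deciles of tag count, knockdown peaks were met in the control list at 34.3% in the lowest and 85.4% in the highest. Control peaks were met after knockdown at 20.9% in the lowest decile and 81.5% in the highest. By overlap, the knockdown peaks were met more often in every decile, against a control list that held more peaks. A rule by distance gave higher shares at every strength. With a centre of the other library within 500 bp counted as met, the highest decile reached 98.6% of knockdown peaks and 99.1% of control peaks, and the lowest 48.3% and 35.8%.

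**Figure D1:**
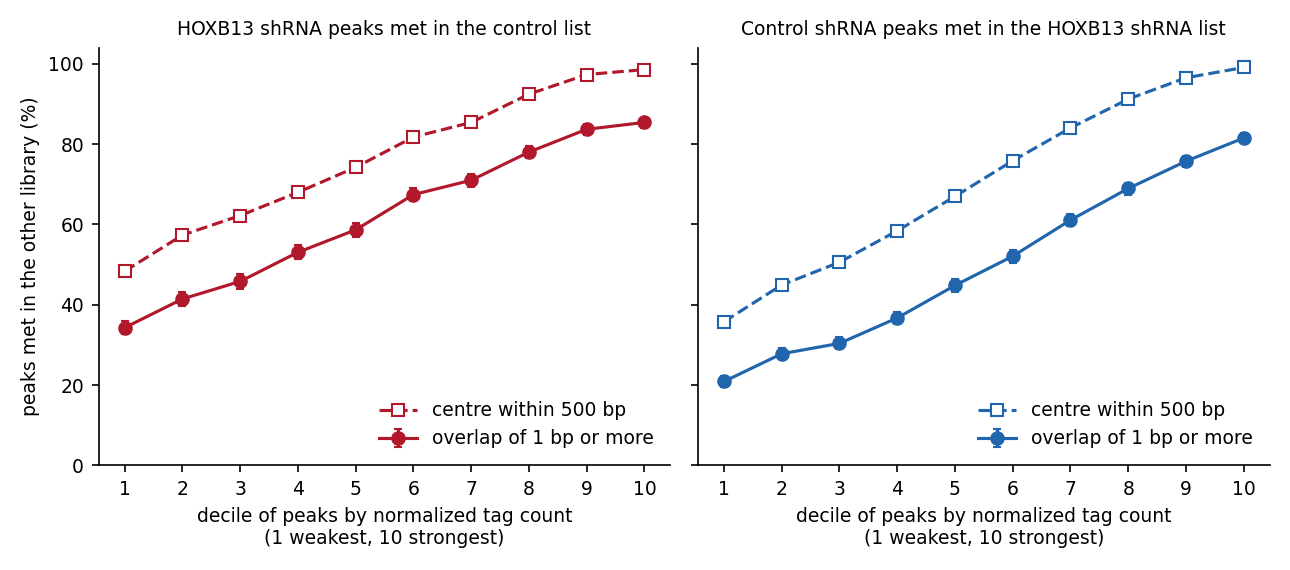
Share of ATAC peaks met in the other library (y axis, %) by decile of normalized tag count (x axis, 1 weakest to 10 strongest), HOXB13 shRNA peaks on the left and control peaks on the right. Filled circles require an overlap of 1 bp (bars, Wilson 95% CI) and open squares a centre within 500 bp. The highest decile was met at 85.4% and 81.5% by overlap and at 98.6% and 99.1% by distance.

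Many unmatched peaks lay beside a peak of the other library. Of the 11411 peaks called after knockdown only, 38.5% (95% CI 37.6 to 39.4) had a control peak centre within 500 bp, and of the 18538 called in the control only, 40.7% (95% CI 40.0 to 41.4) had a knockdown centre that close. In the highest decile of tag count most unmatched peaks did, with 90.2% of those after knockdown and 95.04% of those in the control, against 21.4% and 18.8% in the lowest decile. An example is a gap of 212 bp between the nearest centres on chromosome 11, where a peak at 6256061 to 6256171 with 36.5 normalized tags was called after knockdown only although the control had a peak close by. Under the overlap rule such neighbouring peaks count as unmatched. Control peaks were also called in groups more often, with another control centre within 500 bp at 35.1% of them, while 19.0% of knockdown peaks had another knockdown centre that close.

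**Figure D2:**
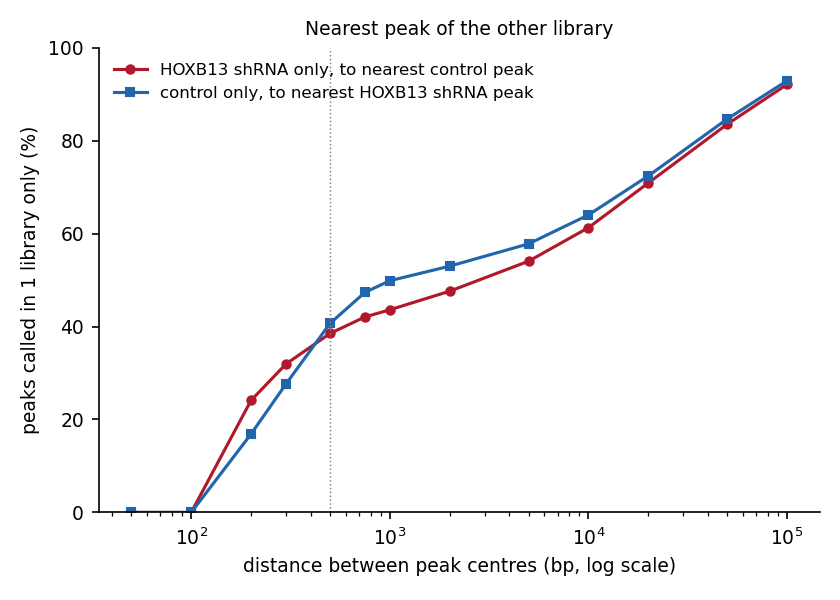
Cumulative share of ATAC peaks called in 1 library only (y axis, %) by distance to the nearest peak centre of the other library (x axis, bp, log scale), for peaks called after HOXB13 shRNA only and in the control only. The dotted line marks 500 bp, where the curves reach 38.5% and 40.7%.

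Joining all peaks of both libraries whose centres lay within 500 bp of the next gave 36194 open elements. Of these, 6876 (19.0%) held knockdown peaks only, 9900 (27.4%) control peaks only and 19418 (53.6%) peaks of both. Elements found in 1 library only were almost always single peaks (99.0% after knockdown and 94.7% in the control), with a median top value of 4.71 and 4.15 normalized tags, against 7.46 in elements of both. Among the highest decile of each list, 43 of 2994 knockdown peaks and 34 of 3708 control peaks had no centre of the other library within 500 bp. Strong open sites of either library without a counterpart in the other were thus few.

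At the 18535 control peaks shared with the knockdown library, tag levels were close. The median was 6.67 normalized tags after knockdown and 6.37 in the control, and the median log2 ratio (HOXB13 shRNA over control) was 0.12, with 5th and 95th percentiles of −0.60 and 0.86. As tag density, tags per bp of peak, the median was −0.085, so the direction depended on whether the wider knockdown peaks were allowed for. A ratio of 1 or above on the log2 scale was found at 492 sites (2.65%) and one of −1 or below at 87 (0.469%). A fall below the knockdown threshold of 3.92 normalized tags can leave a site unmatched, and the control threshold was lower (3.04). With both lists held to the knockdown floor the shares were 1.22% and 0.366%. With density these shares were 0.836% and 1.85%, and with ratios centred on their median 1.30% and 1.15%, so neither direction led under every scaling.

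The spread of the ratios was set beside that of tag counting. The SD of the log2 ratios over all shared peaks was 0.44, and the SD that Poisson counting of the tags would give was 0.47. Only peaks called in both libraries enter, and in the lowest decile of mean level the SD was 0.32 against 0.58 from counting. In each of the upper 6 deciles the SD exceeded that of counting, with 0.44 against 0.37 in the last but one and 0.38 against 0.31 in the highest. No repeat library shows how much of this 2 control cultures would give. The median ratio was 0.24 in the lowest decile and 0.061 in the highest. Sites with ratios of 1 or above had a median of 8.63 normalized tags after knockdown and 3.87 in the control. Those with ratios of −1 or below had 4.71 after knockdown and 10.8 in the control. Both sets were picked by this ratio, which by itself favours low control values in the first and high ones in the second.

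**Figure D3:**
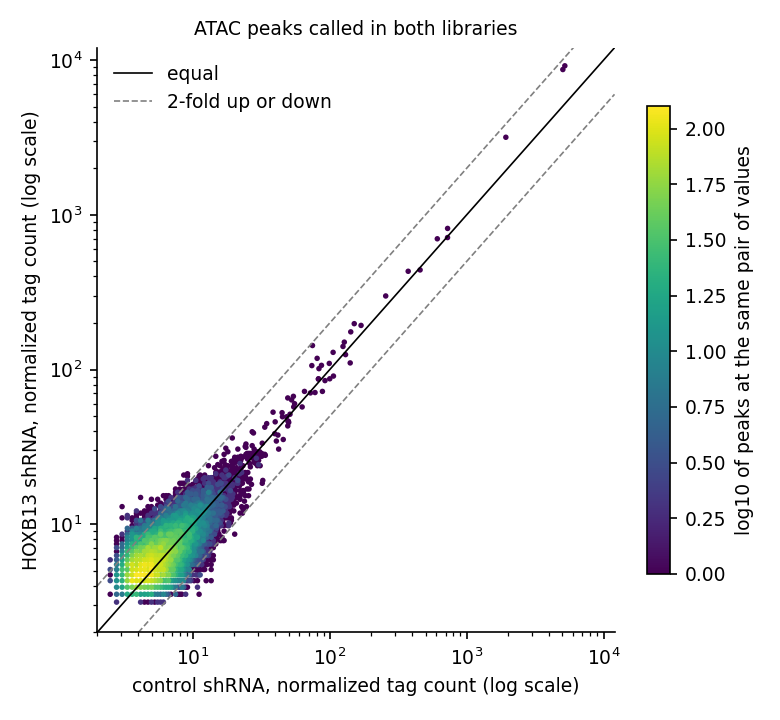
Normalized tag counts of the 18535 shared ATAC peaks after HOXB13 shRNA (y axis, log scale) and in the control (x axis, log scale), coloured by the number of peaks at the same pair of values. The solid line marks equal values and the dashed lines a 2-fold difference, beyond which 492 peaks lay on the higher and 87 on the lower side after knockdown.

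The largest differences at single shared sites rested on few tags. The site with the highest ratio, on chromosome 11 at 9386024 to 9386120, had 13.0 normalized tags (33 tags) after knockdown and 3.04 (11 tags) in the control, a log2 ratio of 2.10 (95% CI 1.07 to 3.22). It lay in PC-3 H3K27ac regions and had no HOXB13, HDAC3 or HDAC1 peak. The next, on chromosome 14 at 21121243 to 21121339, had 28 tags after knockdown and 11 in the control (log2 ratio 1.86, 95% CI 0.80 to 3.01) and was in no other list. The one on chromosome 20 at 34542144 to 34542240 had 14.9 after knockdown and 4.15 in the control (log2 ratio 1.84, 95% CI 0.95 to 2.81), with HDAC3 and HDAC1 peaks in the control. None of the 5 sites with the highest ratios had a HOXB13 peak in either condition, where 29.7% of all shared peaks had one in the control. A share over 5 sites is too coarse to set them apart from the rest. The remaining pair, on chromosomes 16 and 5, had a log2 ratio of 1.78 each.

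The lowest ratio was on chromosome 6 at 72113329 to 72113425, with 4.32 normalized tags (11 tags) after knockdown and 13.6 (49 tags) in the control, a log2 ratio of −1.65 (95% CI −2.74 to −0.69). Peaks of HOXB13, HDAC3 and HDAC1 were called there in the control, and 10 of the 12 lists had a peak. A site on chromosome X at 153775449 to 153775545 had 3.53 after knockdown and 11.1 in the control (log2 ratio −1.65, 95% CI −2.88 to −0.58), and the next, on chromosome 8, had 4.32 after knockdown and 12.5 in the control (log2 ratio −1.53, 95% CI −2.63 to −0.55). The last 2 of the 5, on chromosomes 6 and 9, had 3.92 after knockdown and 10.8 in the control. All 5 lay in PC-3 H3K27ac regions, which covered 56.3% of all shared peaks. The first alone had HOXB13 in the control, as did 29.7% of all shared peaks, and the chromosome 9 site had a HOXB13 peak after knockdown but not in the control. Again 5 sites are too few to set apart from the rest by such shares. These sites were picked as the most extreme of 13784 eligible ones, for which the intervals are not adjusted.

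The highest signals lay in repeated sequence. The 3 strongest control peaks lay on chromosome 1 at 569878 to 569974 (9172.5 normalized tags after knockdown and 5204.8 in the control), on chromosome 1 at 567530 to 567626 (8677.5 and 5033.5) and on chromosome 5 at 134260223 to 134260319 (3168.2 and 1930.3). Both stretches are known in hg19 as nuclear copies of mitochondrial DNA, and no peak was called on the mitochondrial sequence itself in either ATAC list. Their log2 ratios were 0.82, 0.79 and 0.71. A set of 28 other shared peaks with 50 or more control normalized tags, not all of those at that level, had a median of 0.18 (range −0.29 to 0.94). As density its median was −0.028. The next strongest shared peak of the named ones, on chromosome 1 at 121484762 to 121484858 beside the centromere, had 816 normalized tags after knockdown and 724.8 in the control (log2 ratio 0.17, 95% CI 0.087 to 0.25). The strongest peak called in each library only lay there too. The one after knockdown, on chromosome 1 at 121485131 to 121485241 with 1669.6 normalized tags, lay 115 bp from the one in the control, at 121485253 to 121485349 with 1519.4.

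HOXB13 at sites called in 1 library only was close on both sides in all, and differed with tag level and distance. A control HOXB13 peak lay at 23.4% of the peaks called after knockdown only and at 22.4% of those called in the control only, a difference of 1.00 percentage points (95% CI 0.018 to 1.98), against 29.7% of shared control peaks. In bands of tag level the difference was −0.056 points at 4 to 5 normalized tags and −0.62 at 5 to 6, and 3.99 (95% CI 1.57 to 6.42) at 6 to 8 and 4.83 (95% CI 1.15 to 8.54) at 8 to 12. HDAC3, from the control library, was found at 32.7% and 33.1% (difference −0.47 points, 95% CI −1.56 to 0.63), against 51.1% of shared peaks. This value near 0 joined unlike parts. By band the HDAC3 difference was −4.48 points (95% CI −6.43 to −2.51) at 4 to 5 tags, −5.35 (95% CI −7.87 to −2.84) at 5 to 6, −1.63 at 6 to 8 and −0.27 at 8 to 12. It was −3.01 (95% CI −4.32 to −1.68) where no centre of the other library lay within 500 bp and 4.29 (95% CI 2.45 to 6.14) where one did. HOXB13 re-expressed as the wild-type protein was found at 22.9% and 23.6%, and as G84E, a germline variant linked to prostate cancer risk, at 18.5% and 20.2%. The HOXB13 order also turned with distance. Among peaks with no centre of the other library within 500 bp, HOXB13 lay at 23.9% of 7016 knockdown peaks and 26.0% of 10997 control peaks, a difference of −2.02 points (95% CI −3.30 to −0.72), and among those with one it lay at 22.6% and 17.3% (5.32 points, 95% CI 3.83 to 6.83).

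HDAC1 and acetylated regions separated the sides more. A control HDAC1 peak lay at 14.6% of the peaks called after knockdown only and at 19.5% of those called in the control only, a difference of −4.89 points (95% CI −5.75 to −4.03). For H3K27ac of PC-3 control cells, a mark of active promoters and enhancers measured in another prostate cancer line, the shares were 40.8% and 49.0% (difference −8.16 points, 95% CI −9.31 to −7.01). Among peaks with no neighbour of the other library within 500 bp the HDAC1 shares were 5.26% and 11.4%, and the H3K27ac shares 24.6% and 34.3%. Among peaks with such a neighbour the differences were smaller, −1.80 points (95% CI −3.49 to −0.083) for HDAC1 and −3.62 (95% CI −5.36 to −1.89) for H3K27ac. The direction was the same in each of the 4 bands of tag level. From the lowest band to the highest the HDAC1 difference was −6.35, −10.7, −12.3 and −6.92 points, and the H3K27ac difference −12.7, −19.1, −18.8 and −9.19. Grouped peaks moved with both marks: another control centre lay within 500 bp of 53.1% of control ATAC peaks with HDAC1 and 30.2% of those without, and of 50.3% with and 18.3% without PC-3 H3K27ac, and the part of this in the result was not tested. Shared sites followed the same order, with a median log2 ratio of 0.062 inside PC-3 H3K27ac regions and 0.20 outside them. With HDAC1 it was 0.060 and without it 0.14. These sites also differed in mean level, with a median of 7.265 normalized tags inside and 5.825 outside H3K27ac regions. For HDAC1 the medians were 7.235 with and 6.325 without it. The ratios were not compared at equal strength, and the part of strength was not tested.

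**Figure D4:**
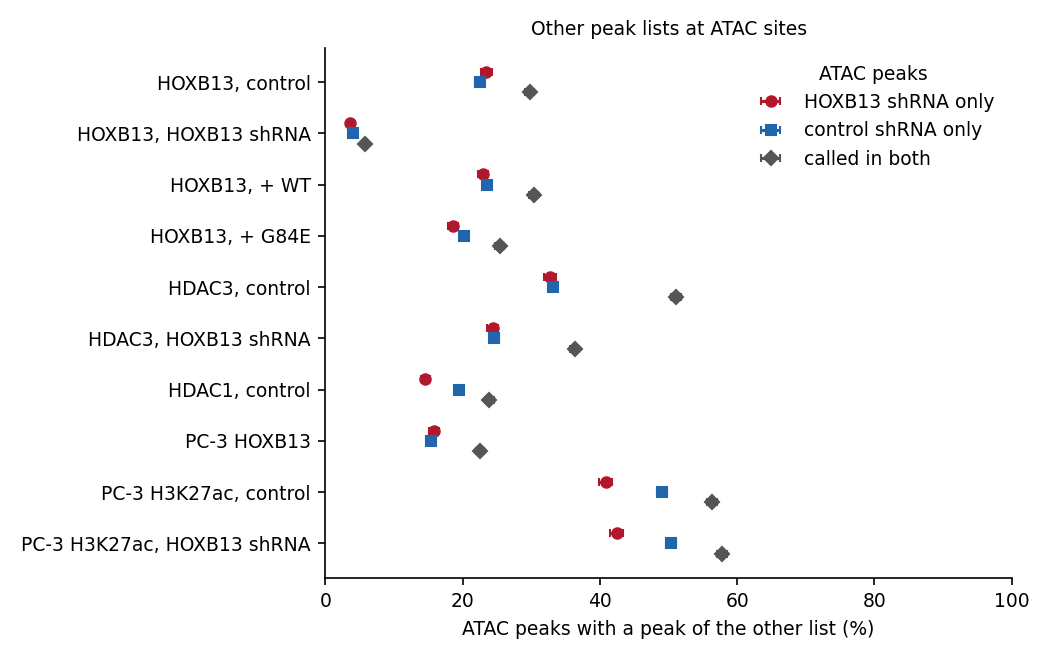
Share of ATAC peaks that overlapped a peak of each of the other 10 lists (x axis, %; bars, Wilson 95% CI), for peaks called after HOXB13 shRNA only, in the control only and in both. HOXB13 and HDAC3 shares of the pair of 1-library sets lie close, with 23.4% and 22.4% for control HOXB13, while those for PC-3 H3K27ac are 40.8% and 49.0%.

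Retention of control peaks differed by which other peaks lay there. Where HOXB13, HDAC3 and HDAC1 all had a control peak, 72.3% of 686 ATAC peaks were met after knockdown (95% CI 68.8 to 75.5), and where none had one, 39.3% of 13253 (95% CI 38.5 to 40.2). The classes also differed in strength, with a median of 7.75 normalized ATAC tags in the first and 4.70 in the second, and their shares are not adjusted for it. Sites with HOXB13 and HDAC3 but no HDAC1 were met at 62.6% (4476 peaks). Those with HDAC3 alone were met at 57.2% (7028), with HOXB13 alone at 48.4% (4283) and with HDAC1 alone at 44.3% (3698). By overlap HDAC3 had the widest gap of the single marks: 60.7% with and 42.2% without it, a difference of 18.4 points (95% CI 17.4 to 19.4) that narrowed to 10.6 when peaks of like tag count were compared. The gap held at sites with HOXB13 (63.9% with and 49.1% without HDAC3) and at sites without HOXB13 (59.1% and 40.4%). For HDAC1 the difference was 6.51 points and turned to −2.34 at equal strength, and for PC-3 H3K27ac it was 7.34 and turned to −5.67. With centres within 500 bp those values at equal strength were 8.43 and 7.82, so their direction depended on the rule.

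The HOXB13 gap depended on how a site was matched. By overlap, 63.9% of HDAC3 sites with HOXB13 and 59.1% of those without were met (difference 4.85 points, 95% CI 3.23 to 6.46), and away from HDAC3 49.1% and 40.4% (8.65 points, 95% CI 7.01 to 10.3). With a knockdown centre within 500 bp counted as met, all sites with HOXB13 reached 70.5% and those without 70.3%, a difference of 0.20 points (95% CI −0.86 to 1.26). At HDAC3 sites the difference was then −2.79 points (95% CI −4.15 to −1.45) and elsewhere −2.11 (95% CI −3.71 to −0.53). Split by HDAC1 it was 8.72 with and 2.55 without it. Inside PC-3 H3K27ac regions it was 1.37 (95% CI −0.042 to 2.74) and outside them 7.04. At equal strength the HDAC3 pair was −2.66 and −1.49, the HDAC1 pair 2.82 and 0.82 and the H3K27ac pair −0.83 and 2.74. Of open elements with control peaks, 71.5% of those with HOXB13 also held knockdown peaks, against 63.6% without. Control peaks with HOXB13 stood in groups less often, with another control centre within 500 bp at 22.1% of them against 39.7% of the others. Among the 24048 control peaks that stood alone the distance rule left a difference of 6.83 points (65.7% with and 58.9% without HOXB13; 95% CI 5.52 to 8.14), or 4.43 at equal strength. Over all control peaks the distance rule gave an HDAC3 gap of 17.1 points (95% CI 16.2 to 18.0), an HDAC1 gap of 18.0 and an H3K27ac gap of 21.8. At equal strength the HDAC3 gap was 8.597, near the 8.43 and 7.82 of the other marks.

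**Figure D5:**
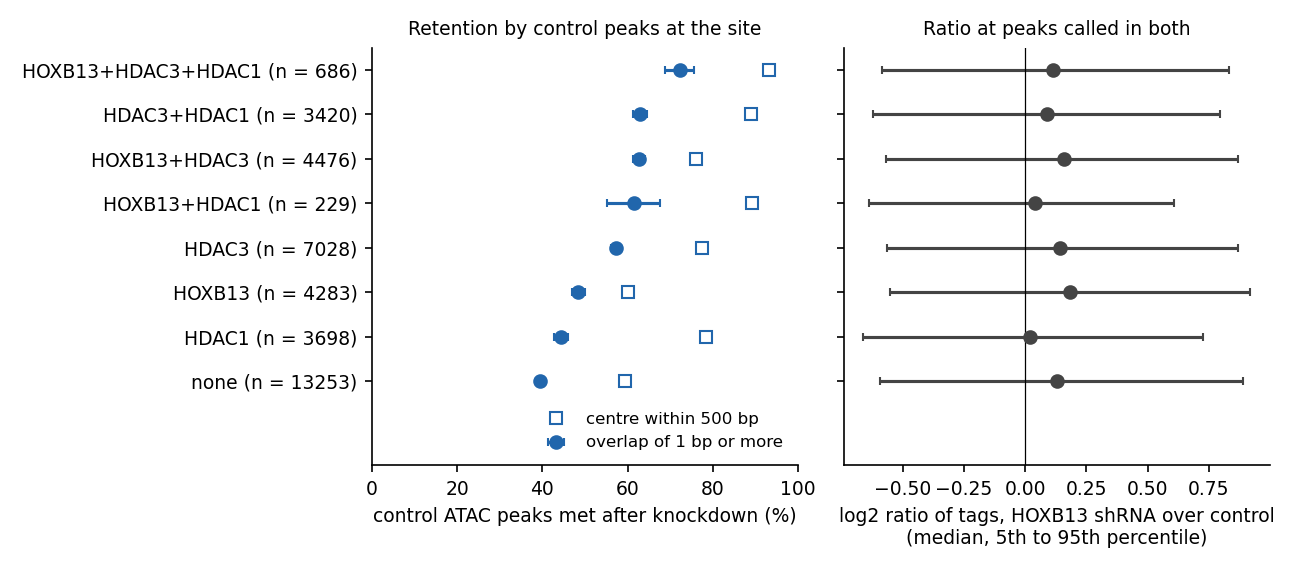
Left, share of control ATAC peaks met after HOXB13 knockdown (x axis, %) in 8 classes by control HOXB13, HDAC3 and HDAC1 peaks, by overlap of 1 bp (circles; bars, Wilson 95% CI) and by a centre within 500 bp (squares). Right, median log2 tag ratio (HOXB13 shRNA over control) of the shared peaks of each class with the 5th to 95th percentile. Overlap ranges from 39.3% with none to 72.3% with all 3, while the medians lie between 0.020 and 0.18.

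Shared sites with HOXB13 had a slightly higher median tag ratio. The median log2 ratio was 0.16 at the 5513 shared peaks with and 0.11 at the 13022 without a control HOXB13 peak. The difference of medians was 0.046 (95% CI 0.027 to 0.062, from order statistics over the sites of 1 pair of libraries, which are not replicates), or 0.052 within deciles of mean level. It was not adjusted for other marks. PC-3 H3K27ac covered 3695 of the 9674 control ATAC peaks with HOXB13 and 15819 of the 27399 without. HDAC1 lay at 915 and 7118 of them. The part of these marks in the difference was not tested. Single sites had quartiles of −0.14 and 0.45 with and −0.19 and 0.40 without HOXB13. The 87 sites with a ratio of −1 or below had HOXB13 at 24.1% (95% CI 16.4 to 34.1) and the 492 sites with a ratio of 1 or above at 32.5% (95% CI 28.5 to 36.8), against 29.7% of all shared peaks. H3K27ac of PC-3 covered 69.0% of the first and 34.1% of the second set, against 56.3% of all shared peaks. The sets also differed in control level, as picking by the ratio itself favours, with medians of 10.8 and 3.87 normalized tags, against 6.37 for all shared peaks. The part of that level in the HOXB13 and H3K27ac shares was not tested. By class the median, not adjusted for strength, ran from 0.020 with HDAC1 alone to 0.18 with HOXB13 alone.

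Accessible HOXB13 sites were next ordered by the strength of the HOXB13 peak. In rising quintiles of control HOXB13 tag count, 59.6%, 58.8%, 56.8%, 54.6% and 55.1% of the ATAC peaks were met after knockdown, at a median of 5.26 normalized ATAC tags in the control in every quintile. The highest quintile minus the lowest was −4.42 points (95% CI −7.53 to −1.31). The median log2 ratio at shared sites was 0.18, 0.17, 0.18, 0.16 and 0.088 in the same order. Other marks also differed along this order: PC-3 H3K27ac covered 31.5% of the highest and 48.5% of the lowest quintile, and HDAC1 5.32% and 16.4%. HDAC3 went the other way, at 61.1% of the highest and 53.1% of the lowest quintile, and was lowest in the middle one (47.8%). Their part in the result was not tested. Sites with a peak of both re-expressed forms of HOXB13 were met at 55.4%, and sites with neither form at 60.5%, a difference of −5.05 points (95% CI −7.62 to −2.45). These sites differed in the same marks, with HDAC1 at 6.52% and 16.1% and H3K27ac at 33.6% and 46.5%. HDAC3 again went the other way, at 55.2% and 48.4%. The part of these marks was not tested either. The 354 sites where a HOXB13 peak was still called after knockdown were met at 66.4%, against 56.6% of the 9320 where it was not, and had stronger ATAC peaks (median 7.47 and 5.26 normalized tags). They also differed in marks, with HDAC1 at 36.7% and 8.42%, H3K27ac at 72.3% and 36.9% and HDAC3 at 66.4% and 52.9%. The part of strength and of these marks was not tested.

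Accessibility was then set against the change in HDAC3. Of the 15610 control ATAC peaks with HDAC3, 10781 lay at an HDAC3 peak that was called again after HOXB13 knockdown and 4829 at one that was not, and they were met at 63.2% and 55.1%. At equal ATAC strength the difference of 8.10 points shrank to 0.99. Control ATAC peaks without control HDAC3 were also split by an HDAC3 peak called after knockdown only. At sites with HOXB13, 58.0% with and 47.0% without such a peak were met (10.9 points, 5.06 at equal strength). At sites without HOXB13 the shares were 46.3% and 39.5% (6.81 points, 3.41 at equal strength). At the 6810 ATAC sites where both kinds of peak were called in both conditions, the ATAC and HDAC3 log2 ratios were nearly unrelated across sites (Pearson r 0.013, Spearman rho 0.012; sites share their libraries and are not independent replicates). Counting error in the ATAC ratios lowers such a correlation. Over all shared peaks their SD was 0.44, against 0.47 from counting, and in the highest decile of mean level 0.38 against 0.31. A correlation near 0 therefore does not by itself tell whether accessibility moved with HDAC3. In rising quintiles of the HDAC3 ratio, whose medians ran from −1.20 to 0.15, the median ATAC ratio was 0.12, 0.11, 0.12, 0.13 and 0.13. HDAC3 peaks were 365 bp wide after knockdown and 471 bp in the control, with 5.08% and 7.63% of tags in peaks. The HDAC3 ratios were not adjusted for either.

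Chromosomes differed little in tag ratio and more in which peaks were called. Over chromosomes 1 to 22 and X the median log2 ratio of shared peaks lay between 0.088 (chromosomes 1 and 4) and 0.19 (chromosome 20), and retention between 41.4% (chromosome X, 517 control peaks, 95% CI 37.2 to 45.7) and 53.4% (chromosome 7, 2323 peaks, 95% CI 51.4 to 55.4). Chromosomes 18 and 20 stood out for peaks called after knockdown only, with 48.3% of 605 (95% CI 44.3 to 52.2) and 46.5% of 662 (95% CI 42.8 to 50.3), against 33.7% on chromosome 7. Chromosome 18 had 605 knockdown and 648 control peaks, or 0.934 per control peak, where the whole lists had 0.807 and chromosome X had 0.692.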

How the data were processed

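The 2 ATAC-seq libraries, 1 per group, were sequenced paired-end, per the labels' protocols. The submitters' processing notes name Bowtie2, HOMER 4.2 and hg19. Each library's peaks were found on their own by the authors with findPeaks (factor style, no input in the command), per the file headers, at a false discovery rate of 0.001, with 4-fold over the surrounding 10000 bp at a local Poisson p-value of 0.0001. No shift for the transposase is recorded in the headers. The deposited signal is the normalized tag count, scaled to 10000000 tags. The deposited score ranked peaks, and the deposited fold over local background, focus fraction, p-value and clonal ratio were not used for results. Multiplying by library size gave whole tags back (100% of values under 10 within 0.1 tags). The 10 other lists marked sites by overlap of 1 bp. Where a control peak met several, the highest was taken.

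Named regions are, on chromosomes 1 to 22 and X, the 5 highest and 5 lowest ratios among shared peaks with a mean at or above the control median of 5.26 normalized tags, the 5 strongest peaks called in each library alone and the 5 strongest control peaks. Of the last 2 kinds the leading ones are given. The chromosome 11 site with a gap of 212 bp belongs to the strongest knockdown-only peaks. Standardisation used 10 equal groups of tag count, weighted by the peaks with the mark. Scripts were tested on simulated peaks and tags. Members, lists and comparisons were chosen with earlier results of these data known; the 500 bp rule, elements and common floor were added after the data were seen. The build's sequence and annotation were not used here, so sequences, motifs, gene lists and prostate markers were not analysed here, nor were the 4 LNCaP H3K27ac samples. Python 3.11.15, numpy 2.4.6, pandas 2.3.3, scipy 1.17.1 and matplotlib 3.10.9 were used.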

Additional observations from a re-analysis of the deposited data

How the results depend on the processing

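No paired analysis was possible because each group held 1 library and no library could be left out. The share of control peaks met after knockdown, 50.0%, was 37.8% with an overlap of 50% of the shorter peak, 52.6% among the 50% of peaks with the better scores in all lists, 56.6% with lists of equal length, 47.9% without peaks in 9 or more of the 12 lists, 70.3% with centres within 500 bp and 55.8% with both lists at or above the knockdown floor. The share of knockdown peaks without a control peak, 38.1%, was 38.7% with centres within 100 bp, and 53.2%, 34.9%, 43.5%, 40.1%, 23.4% and 42.7% under the same 6 alternatives in that order. The HOXB13 difference of 9.46 points was 7.82 with 50% overlap, 4.38 in the better-scoring lists, 5.05 without peaks in 9 or more lists and 0.20 with centres within 500 bp. The HDAC3 difference of 18.4 points was 14.0 with 50% overlap and also 14.0 in the better-scoring lists, 15.6 with equal lengths, 15.4 without peaks in 9 or more lists, 10.6 at equal strength, 17.1 with centres within 500 bp and 15.5 with the common floor.

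The median log2 ratio of 0.12 was −0.085 as tag density, the only reversal, which the widths account for by construction. It was 0.11 in the better-scoring lists and 0.088 both with equal lengths and with the common floor. The share at −1 or below, 0.469%, was 0.236% in the better-scoring lists, 1.85% as density, 1.15% centred and 0.366% with the common floor. The share at 1 or above, 2.65%, was 1.07%, 0.836%, 1.30% and 1.22% in the same order, and 1.81% with equal lengths. The HOXB13 difference of medians, 0.046, was 0.067 without peaks in 9 or more lists. In the other 30 cases the value stayed inside the 95% interval of the reported one. Except for the reversal by density, the cause of these shifts was not tested. The 500 bp rule and the common floor were chosen after seeing the data. At a median of 13 to 23 tags per peak, a 2-fold difference at a single site is near the limit of counting.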
